A study of Homo sapiens with 16 samples.

Results

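The genes described here are 41 listed interferon-stimulated genes, out of 35052 genes to which reads could be assigned, followed in K562 cells over 72 h of treatment with a phorbol ester. K562 is an established human leukaemia cell line with erythroid and megakaryocytic features. All cells were wild type, and all libraries carry the label of 25 nM PMA (phorbol 12-myristate 13-acetate, an activator of protein kinase C that was used to drive the cells towards a megakaryocyte-like state). The time points were 0 h, 0.5 h, 1.5 h, 3 h, 6 h, 24 h, 48 h and 72 h, with 2 libraries of ribosomal-RNA-depleted total RNA each, and 0 h served as the untreated state. The medium was replaced after 24 h and after 48 h, so the later time points differ from the earlier ones in fresh medium as well as in time, and these cannot be told apart. No interferon was added according to the labels, and whether the libraries of a time point came from separate cultures is not stated, so p-values measure the spread between these libraries only. In what follows, CPM is the number of reads of a gene relative to each 1e6 reads of its library after scaling. TPM is the deposited value summed over a gene's transcripts, which allows for transcript length but does not carry that scaling. The 2 measures can therefore differ between time points by more than length. A gene is called higher or lower when its adjusted p (edgeR quasi-likelihood test) is under 0.05.

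Interferons are secreted proteins that bind receptors on the cell surface and activate the kinases JAK1 and TYK2, which phosphorylate STAT proteins. STAT2 and IRF9 act in a complex that binds the interferon-stimulated response element (ISRE), and a further element of these promoters is the gamma-activated sequence (GAS). The genes under these elements encode sensors of foreign nucleic acid, enzymes that block translation or degrade RNA, proteins that stop viruses at membranes, and the ubiquitin-like protein ISG15 with its enzymes. Many of them have some activity without interferon, and several respond to other signals or to IRF1 alone.

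Promoter sequences from RefSeq (GRCh38.p14) were matched by symbol to 32 of the 41 members. The ISRE core was searched as GAAA, any bases NN, then GAAA on either strand (TTTC, NN, TTTC when read on the other strand) in the 250 bases before the annotated start. It was present in 21 of 32 members (65.6%), against 3.71% of all 27305 genes with a promoter in the table. The GAS letters TTCNNNGAA, which read the same on both strands, were present in 10 of 32 members (31.2%) against 8.09% of all genes. The windows below belong to members with different courses over time and are shown so that their elements can be compared. Each runs 5′ to 3′ on the strand of its gene, and capitals mark the core.
IFITM1, chr11:313990-314019, plus strand: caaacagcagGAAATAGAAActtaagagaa
IFITM3, chr11:320876-320905, minus strand: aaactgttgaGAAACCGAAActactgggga
ISG15, chr1:1013380-1013409, plus strand: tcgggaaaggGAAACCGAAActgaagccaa
PARP9, chr3:122564322-122564351, minus strand: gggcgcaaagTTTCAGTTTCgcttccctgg
IFIT1, chr10:89392510-89392539, plus strand: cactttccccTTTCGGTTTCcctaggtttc
OAS3, chr12:112938321-112938350, plus strand: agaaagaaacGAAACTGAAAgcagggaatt
SAMD9, chr7:93118096-93118125, minus strand: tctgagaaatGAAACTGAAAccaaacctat
DDX60, chr4:168318821-168318850, minus strand: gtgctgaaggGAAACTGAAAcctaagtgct
ISG20, chr15:88638937-88638966, plus strand: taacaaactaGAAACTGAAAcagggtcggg
Read on either strand, GAAACTGAAA occurs in 9 members (BST2, DDX60, GBP1, IFI44, IFIT3, ISG20, OAS3, PARP9 and SAMD9), and GAAACCGAAA occurs in 6 (DDX60, IFI27, IFIT1, IFIT5, IFITM3 and ISG15). STAT2, EIF2AK2, DTX3L, IFI16, TRIM21, SAMD9L and XAF1 had neither set of letters in this window. IRF1 and IRF9 had GAS letters only, and the IRF1 window (chr5:132490878-132490907, minus strand) reads acagcctgatTTCCCCGAAatgacggcacg.

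The 16 libraries held 27285773 to 54056289 estimated reads each, and a count of 3 reads corresponded to 0.0623 to 0.128 CPM. All 10 markers of the K562 line were detected at every time point, with summed levels of 1512 to 2615 CPM. The 0 h replicate 2 library stood apart in the gap between transcript length and effective length, a measure of fragment size (199.2 nt, against 229.4 to 248.4 nt in the other replicate 2 libraries and 210.0 to 221.1 nt in replicate 1), so counts against 0 h are also given without it. At 0.5 h and 1.5 h the fold changes of all genes ran with their GC content (r = -0.77 and -0.43 across 9975 genes, which are not independent replicates), and at later times the correlation lay between -0.17 and -0.025. Its part in the early results was not tested beyond the removal of the trend given at the end.

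Of the 41 members, 37 passed the filter on low counts. The other 4, OASL, IFIT5, GBP1 and IFI44, were near the read floor, with at most 9, 3, 5 and 2 reads in any library. In the test of any difference between time points, 30 of the 37 were called, beside 82.9% of the 17559 genes tested. Against 0 h, 12 members were only ever higher, 10 were only ever lower, 9 were higher at some times and lower at others, and 6 were never called (OAS2, USP18, HERC5, IFI27, IFI44L and XAF1). Their largest change fell most often at 72 h (16 members) and at 6 h (15 members). How often all genes show these patterns of calls, or their largest change at these times, was not counted. These counts therefore describe the members and do not set them apart from other genes. At every time from 1.5 h on, some members were higher than at 0 h and others lower.

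**Figure D1:**
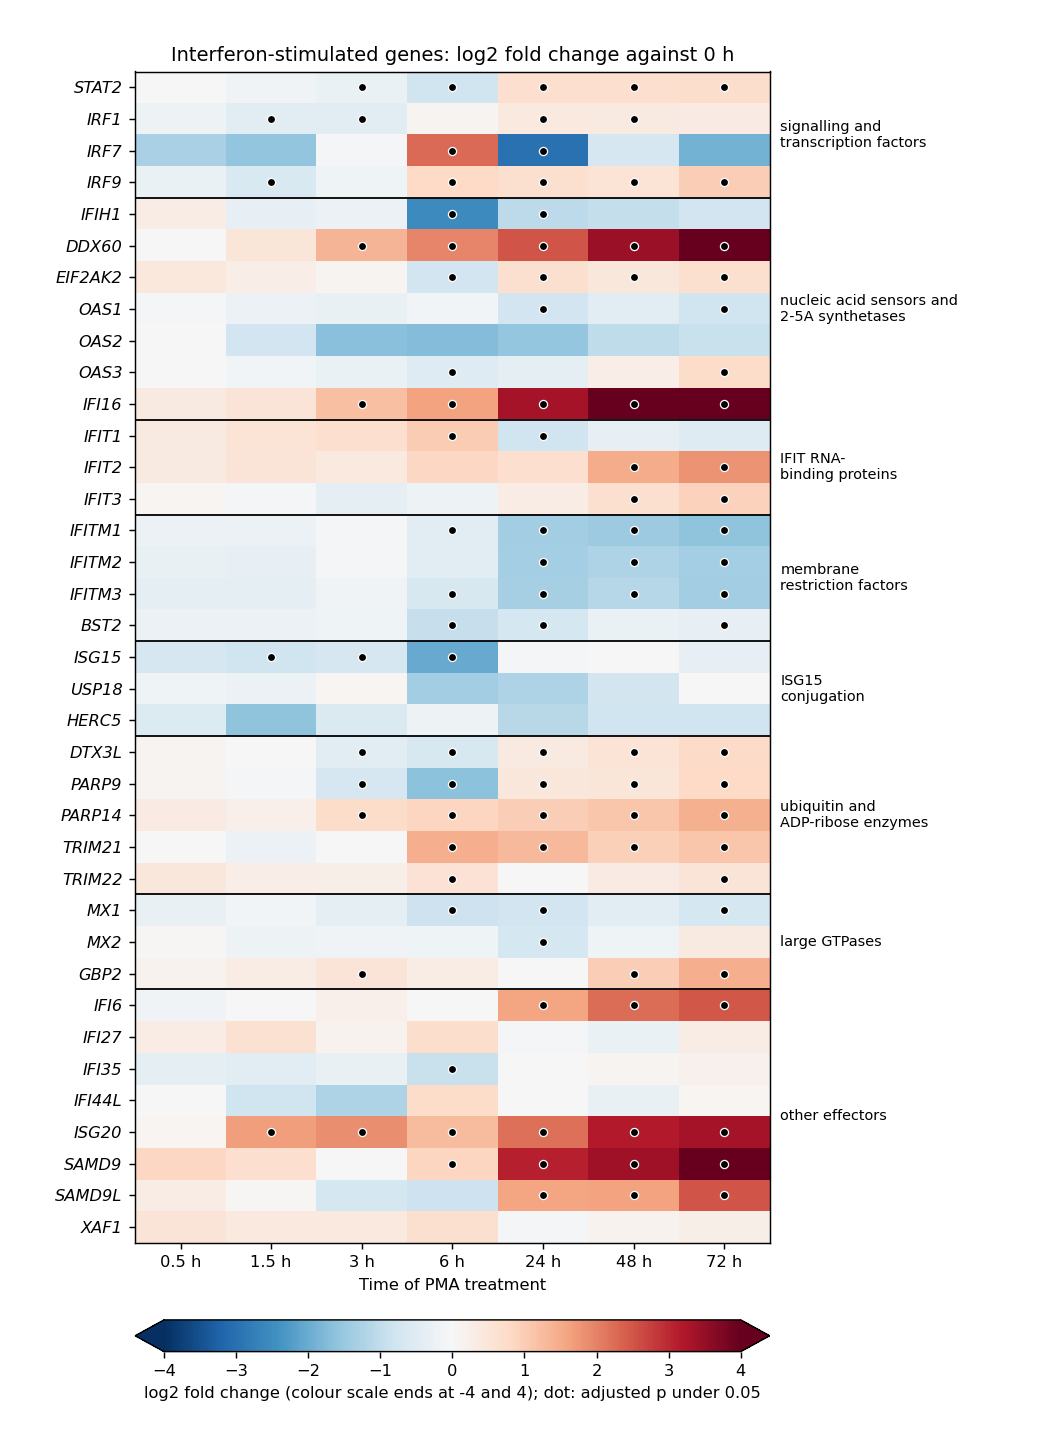
Log2 fold change against 0 h (colour) of the 37 tested members (rows, by role) at 7 times of PMA treatment (columns); a dot marks an adjusted p under 0.05. Blue cells gather at 6 h and in the membrane restriction factors from 24 h, and the deepest red is that of IFI16 at 48 h and of IFI16, DDX60 and SAMD9 at 72 h, all past the end of the colour scale at 4.

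No member was called at 0.5 h, where 0.171% of all genes were called (0.165% higher, 0.0057% lower). With an unadjusted p under 0.05 there were 7 members, beside 22.3% of all genes, and DESeq2 called 0 as well. Without 0 h replicate 1, 7 members (18.9%) were called at this time, 3 higher and 4 lower, beside 19.9% of all genes in that fit. Without 0 h replicate 2 it was again 0 members. At 1.5 h, 4 of 37 members (10.8%) were called, 1 higher and 3 lower, beside 17.1% of all genes (9.05% higher, 8.05% lower). ISG20 was the gene that was higher, and ISG15, IRF1 and IRF9 were lower. Only ISG20 was called at 1.5 h without 0 h replicate 2, beside 5.58% of all genes in that fit, and 12 members (32.4%) were called without 0 h replicate 1, beside 27.8% of all genes.

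At 3 h, 10 members (27%) were called, 5 in each direction, beside 42% of all genes (21.5% higher, 20.5% lower). IFI16, DDX60, ISG20, PARP14 and GBP2 were higher, and STAT2, IRF1, ISG15, DTX3L and PARP9 were lower. The GBP2 call at 3 h (log2 fold change 0.52, adjusted p = 0.0324) was lost in 10 of 15 alternatives, and its value ranged from -0.31 to 1.4. The count was 6 without 0 h replicate 2, beside 33.7% of all genes in that fit. When libraries were scaled to their total counts it was 16, with 4 higher and 12 lower. Over all genes, 8598 were then called, against 7370 with the scaling used in this report. Scaling to total counts moved the median of all genes by more than 0.1 at most times, to -0.28 at 3 h and -0.35 at 6 h on the log2 scale, where the scaling used in this report gave 0.00 at both.

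At 6 h, 22 members (59.5%) were called, beside 57.2% of all genes, with 10 higher (27.8% of all genes) and 12 lower (29.4% of all genes). The median log2 fold change of the members was -0.16, against 0.00 over all genes. The 12 that were lower were STAT2, IFIH1, EIF2AK2, OAS3, IFITM1, IFITM3, BST2, ISG15, DTX3L, PARP9, MX1 and IFI35. Without 0 h replicate 2, 17 were called, 7 higher and 10 lower, beside 50.8% of all genes in that fit, and IFITM1 and IFITM3 were then not among the lower ones. With scaling to total counts 21 were called, 6 higher and 15 lower, beside 10595 of all genes, against 10040 with the scaling used in this report.

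At 24 h, 24 members (64.9%) were called, beside 58.3% of all genes, with 14 higher (31.7% of all genes) and 10 lower (26.6% of all genes). Scaling to total counts gave 10 higher and 12 lower, and leaving out 0 h replicate 2 gave 13 higher and 7 lower. Over all genes, scaling to total counts gave 10775 calls at 24 h and 10056 at 48 h, against 10241 and 9529 with the scaling used in this report. The share of all genes called was lower at both times when 0 h replicate 2 was left out. At 48 h, 20 members (54.1%) were called, beside 54.3% of all genes, with 17 higher (30.2% of all genes) and 3 lower (24.1% of all genes). The 3 lower genes were IFITM1, IFITM2 and IFITM3. Scaling to total counts gave 12 higher and 5 lower at 48 h, and leaving out 0 h replicate 2 gave 15 higher and 3 lower.

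At 72 h, 24 members (64.9%) were called, beside 58.6% of all genes, with 18 higher (31.7% of all genes) and 6 lower (26.9% of all genes). The median log2 fold change of the members was 0.36, against -0.03 over all genes. DESeq2 called 19 higher and 3 lower at 72 h, and 18 higher and 5 lower were called without 0 h replicate 2. The 6 that were lower were OAS1, IFITM1, IFITM2, IFITM3, BST2 and MX1. Of the higher members, 10 of 37 tested were at least 2-fold above 0 h, beside 18.2% of all genes. Over all genes at 72 h, DESeq2 called 9711 and edgeR 10294. The share of all genes called at 72 h was also lower when 0 h replicate 2 was left out.

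The change between late times was tested as a direct contrast that does not use the 0 h levels. The spread still came from the shared fit of all libraries, with 0 h included. At 24 h against 6 h, 20 members (54.1%) were called, beside 56.6% of all genes, with 12 higher (30.8% of all genes) and 8 lower (25.8% of all genes). Scaling to total counts gave 14 higher and 5 lower, beside 9515 of all genes, against 9943 with the scaling used in this report. At 72 h against 24 h, 14 members (37.8%) were called, beside 26.3% of all genes, and all 14 were higher (13.9% of all genes were). The count was 8, again all higher, without 24 h replicate 2, which is the deepest library.

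STAT2, the STAT protein particular to the response to type I and type III interferon, fell to its lowest CPM at 6 h and was above its starting CPM from 24 h. Its CPM values were 83.4 and 85.7 at 0 h, 84.5 and 83.6 at 0.5 h, 75.7 and 78.8 at 1.5 h, 69.3 and 71.7 at 3 h, 47.2 and 49.7 at 6 h, 132 and 140 at 24 h, 132 and 134 at 48 h, then 142 and 135 at 72 h. In CPM the 6 h pair lay below, and the 3 late pairs above, every library of the other times. On the log2 scale the change against 0 h was -0.80 at 6 h (SE 0.08, adjusted p = 6.78e-07) and 0.71 at 72 h (SE 0.08, adjusted p = 2.03e-06), and the direct difference of 72 h over 6 h was 1.51 (SE 0.08, adjusted p = 2.28e-09). In TPM, STAT2 was the highest of the 4 signalling members, at a mean of 51.0 over all libraries. Its TPM was about as low at 3 h (27.5 and 32.1) as at 6 h (31.5 and 28.1).

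IRF9, the DNA-binding partner of STAT2, had 7.58 and 8.30 CPM at 0 h, 4.71 and 5.65 at 1.5 h, 12.5 and 14.9 at 6 h, then 13.7 and 17.6 at 72 h. It was lower at 1.5 h (log2 fold change -0.62, SE 0.17, adjusted p = 0.0232) and higher at 72 h (0.97, SE 0.16, adjusted p = 0.000143). The fall at 1.5 h was not called without 0 h replicate 2, nor without either 1.5 h library. IRF9 values carry an ambiguity, since 49.3% of its 31-base words occur in other genes, above all in a readthrough gene on the same strand, and 29.1% of its reads lay on protein-coding transcripts.

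IRF1, a transcription factor that can activate many of these genes without STAT2, had 25.4 and 31.2 CPM at 0 h, 20.6 in both libraries at 1.5 h, then 35.6 and 38.2 at 24 h. The changes against 0 h were small, with log2 values of -0.46 at 1.5 h (adjusted p = 0.0444) and 0.38 at 24 h (adjusted p = 0.0325), and both calls were lost without some single libraries. The direct difference of 24 h over 1.5 h was 0.84 (SE 0.14, adjusted p = 0.000205). These times were picked as the highest and lowest against 0 h in the same fit, and the p-value does not allow for that choice.

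IRF7, which amplifies type I interferon production, was close to the detection limit. It had 34 and 5 reads at 0 h, 36 and 121 at 6 h, 0 and 6 at 24 h, then 5 and 6 at 72 h. The libraries of a pair lay far apart, and in CPM the 6 h libraries (1.54 and 4.28) were above the 0 h libraries (1.04 and 0.161). It was called higher at 6 h (log2 fold change 2.27, SE 0.69, adjusted p = 0.0113), and this call was lost without 0 h replicate 2, without 6 h replicate 2 and on protein-coding transcripts alone.

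Among the sensors, IFI16 showed the largest change of all members. IFI16 binds DNA in the nucleus and cytosol. Its CPM values were 0.859 and 0.740 at 0 h, 0.924 and 1.12 at 0.5 h, 1.12 and 1.19 at 1.5 h, 1.86 and 1.83 at 3 h, 2.09 and 2.80 at 6 h, 7.58 and 8.55 at 24 h, 16.7 and 17.6 at 48 h, then 44.1 and 38.2 at 72 h. From 3 h on, each pair lay above both libraries of the time before it. The log2 fold change was 1.20 at 3 h, 3.33 at 24 h and 5.68 at 72 h (SE 0.19, adjusted p = 1.38e-11), and between 24 h and 72 h IFI16 rose by 2.35 (SE 0.15, adjusted p = 1.55e-07).

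DDX60, a helicase described as a cofactor of RNA sensing, began lower and rose by a log2 value of 4.10 at 72 h (SE 0.33, adjusted p = 1.34e-07). It had 13 and 6 reads at 0 h and 211 and 143 reads at 72 h, or 0.399 and 0.193 CPM against 5.88 and 4.47 CPM. It was higher at each of the 5 times from 3 h on.

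EIF2AK2 encodes PKR, the kinase that blocks translation when it meets viral RNA. Its CPM values were 82.0 and 57.0 at 0 h, 90.1 and 94.3 at 0.5 h, 79.0 and 87.2 at 1.5 h, 72.0 and 78.7 at 3 h, 39.6 and 42.3 at 6 h, 107 and 109 at 24 h, 92.3 and 97.2 at 48 h, then 118 and 100 at 72 h. The 0 h pair lay far apart, but the 6 h pair was below all other libraries. Relative to 0 h, the log2 change was -0.76 at 6 h (SE 0.14, adjusted p = 0.000343) and 0.65 at 72 h (SE 0.14, adjusted p = 0.00107), with a direct difference of 1.41 between them (SE 0.14, adjusted p = 1.58e-06).

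IFIH1, which encodes the RNA sensor MDA5, had 32 and 27 reads at 0 h, 3 and 5 reads at 6 h, and 20 and 17 reads at 72 h. The fall at 6 h (log2 fold change -2.56, SE 0.51, adjusted p = 0.000635) was called in all 14 alternatives, although the 6 h values sit at about the 3-read floor.

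The oligoadenylate synthetases make the small messenger that switches on RNase L, and their members did not move together. OAS3 had 5.89 and 5.92 CPM at 0 h, 4.01 and 4.14 at 6 h, then 9.03 and 10.4 at 72 h. It was lower at 6 h (log2 fold change -0.53, adjusted p = 0.0157) and higher at 72 h (0.72, SE 0.16, adjusted p = 0.00185). OAS1 went the other way at 72 h, from 2.49 and 2.16 to 1.34 and 1.31 CPM (log2 fold change -0.81, SE 0.28, adjusted p = 0.0232), a call that was lost with DESeq2 (adjusted p = 0.0614), without 0 h replicate 1 and without either 72 h library. In the test over all times OAS1 was not called (adjusted p = 0.0939). OAS2 had 2 to 16 reads per library and OASL 1 to 9, and no change was detectable at that depth. The OAS3 fall at 6 h was not called without either 6 h library, and its rise at 72 h was not called when counts were derived from length-scaled TPM (log2 fold change 0.33, adjusted p = 0.241).

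The IFIT proteins bind viral RNA ends and hold back its translation. IFIT1 was higher at 6 h and lower at 24 h. It had 2.21 and 2.19 CPM at 0 h, 4.27 and 4.60 at 6 h, 1.78 and 0.830 at 24 h, then 1.34 and 1.72 at 72 h. The log2 fold change was 1.01 at 6 h (SE 0.30, adjusted p = 0.00958) and -0.79 at 24 h (adjusted p = 0.0436), and 24 h against 6 h gave -1.81 (SE 0.31, adjusted p = 0.000236). The fall at 24 h was lost without either 0 h library, without 24 h replicate 2 and with DESeq2. The value at 6 h was 0.64 with scaling to total counts and was then not called (adjusted p = 0.109).

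IFIT3 did not share the IFIT1 peak. It had 4.02 and 3.22 CPM at 0 h, 3.63 and 2.69 at 6 h, then 7.02 and 6.59 at 72 h, and was higher at 72 h (log2 fold change 0.91, SE 0.20, adjusted p = 0.00164). IFIT2 rose over the same days, by 1.81 at 72 h (SE 0.36, adjusted p = 0.00061), from 13 and 16 reads to 77 and 34. IFIT5 had at most 3 reads. IFIT1, IFIT2 and IFIT3 overlap the gene LIPA on the opposite strand, and whether the counting used strand is not given in the sources used here.

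The membrane restriction factors had the highest mean TPM of all members, and they fell. IFITM1, IFITM2 and IFITM3 stop enveloped viruses from fusing with the cell, and BST2 tethers virus particles to the surface. IFITM1 had 316 and 409 CPM at 0 h, 301 and 321 at 0.5 h, 302 and 315 at 1.5 h, 384 and 309 at 3 h, 262 and 275 at 6 h, 132 and 147 at 24 h, 130 and 135 at 48 h, then 121 and 116 at 72 h. All 6 late libraries lay below all 10 earlier ones. In the fit, the log2 change was -1.38 at 24 h and -1.61 at 72 h (SE 0.13, adjusted p = 1.22e-07).

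IFITM2 and IFITM3 were also lower at 24 h, 48 h and 72 h, and IFITM3 was called at 6 h as IFITM1 was, while IFITM2 was not (adjusted p = 0.0563). IFITM2 went from 157 and 234 CPM at 0 h to 65.5 and 86.8 at 72 h (log2 fold change -1.36, SE 0.20, adjusted p = 4.18e-05). IFITM3 went from 162 and 230 CPM at 0 h to 66.5 and 83.5 at 72 h (log2 fold change -1.39, SE 0.17, adjusted p = 8.19e-06). None of the 3 was called between 72 h and 24 h. The 3 genes lie close together on chromosome 11 and share sequence, with 35.3% (IFITM1), 44.8% (IFITM2) and 35.5% (IFITM3) of their 31-base words found in other genes, so reads can be divided between them by the counting model. Their sum does not depend on that division among the 3, and it went from 636 and 874 CPM at 0 h to 253 and 286 CPM at 72 h.

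BST2 also fell, but its lowest level was at 6 h. It had 51.7 and 69.4 CPM at 0 h, 28.8 and 34.8 at 6 h, 36.7 and 38.5 at 24 h, then 45.8 and 50.1 at 72 h. The log2 fold change was -0.93 at 6 h (SE 0.14, adjusted p = 5.01e-05) and -0.34 at 72 h (adjusted p = 0.0458), and the latter was not called in 8 of 15 alternatives. As these are bulk samples, fewer cells with the RNA and less RNA per cell cannot be told apart.

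Set against the fall of the IFITM genes, the other 38 members together took more of the RNA at late times. Their summed level was 418 and 403 CPM at 0 h, 352 and 374 at 6 h, 574 and 579 at 24 h, then 741 and 711 at 72 h. The IFITM genes made up 60.3% and 68.4% of all members' CPM at 0 h and 25.5% and 28.7% at 72 h. A sum over the set is therefore ruled by these 3 genes at the start and by others at the end.

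**Figure D2:**
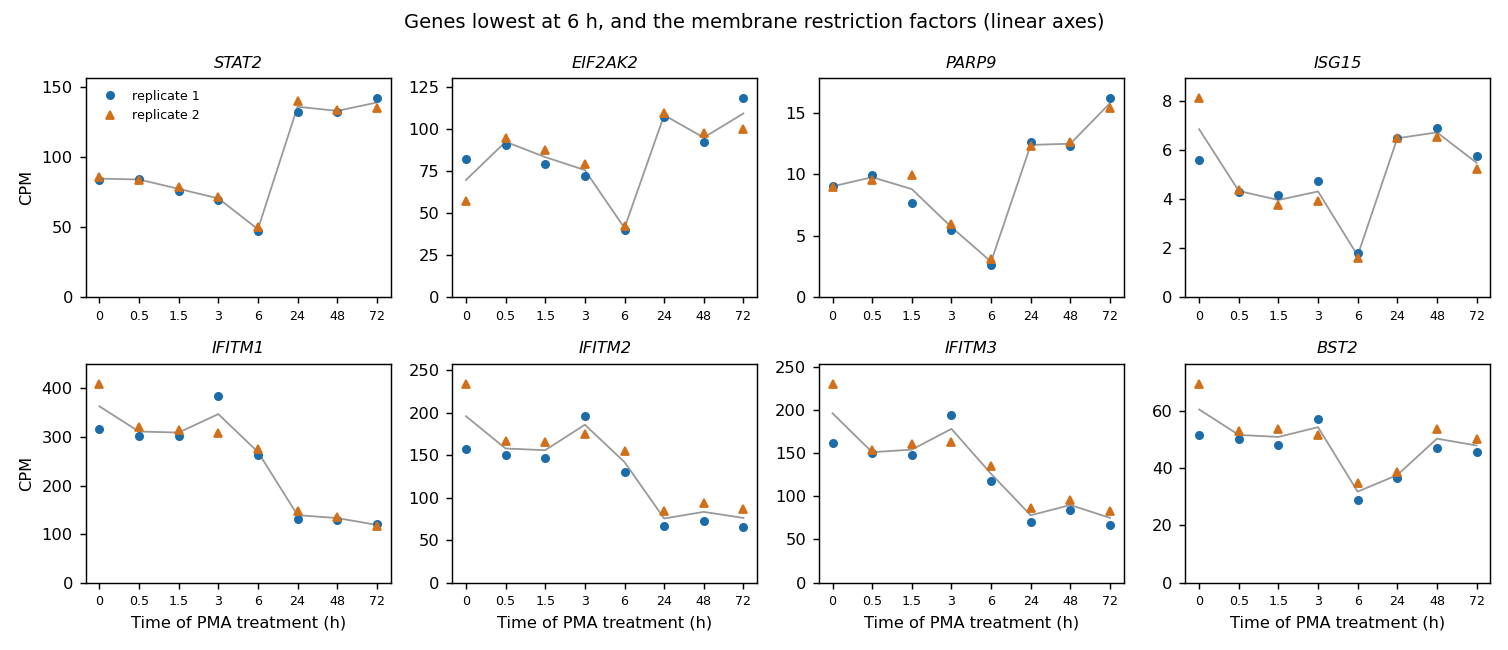
CPM of STAT2, EIF2AK2, PARP9 and ISG15 (upper row) and of the membrane restriction factors IFITM1, IFITM2, IFITM3 and BST2 (lower row) in each library, by time of PMA treatment in hours (times are equally spaced, not to scale). Points are the 2 replicates and the line joins their means; the upper genes and BST2 have their lowest pair at 6 h, while the IFITM genes drop between 6 h and 24 h.

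ISG15, the ubiquitin-like modifier, had the deepest fall at 6 h among members with at least 1 CPM on average. Its CPM values were 5.59 and 8.11 at 0 h, 4.30 and 4.36 at 0.5 h, 4.17 and 3.75 at 1.5 h, 4.72 and 3.91 at 3 h, 1.79 and 1.59 at 6 h, 6.49 and 6.47 at 24 h, 6.89 and 6.55 at 48 h, then 5.74 and 5.22 at 72 h. The 6 h pair was below every other library, and from 24 h on the values lay around those of 0 h. Against 0 h the log2 difference was -2.02 at 6 h (SE 0.20, adjusted p = 1.11e-06) and 24 h exceeded 6 h by 1.94 (SE 0.20, adjusted p = 2.68e-06). USP18, which removes ISG15 from proteins and restrains the receptor, had 6 to 37 reads, and HERC5, the ligase for ISG15, had 2 to 12 reads. Neither was called at any time, and the low counts limit what could be detected.

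PARP9 and DTX3L encode partners in one complex that modifies proteins with ADP-ribose and ubiquitin, and they start side by side on opposite strands of chromosome 3. PARP9 had 9.05 and 8.98 CPM at 0 h, 9.96 and 9.57 at 0.5 h, 7.68 and 9.93 at 1.5 h, 5.46 and 5.94 at 3 h, 2.65 and 3.12 at 6 h, 12.6 and 12.3 at 24 h, 12.3 and 12.6 at 48 h, then 16.2 and 15.4 at 72 h. The level fell through 3 h and 6 h and then passed its starting level in every late library. The log2 fold change was -1.64 at 6 h (SE 0.15, adjusted p = 5.22e-07) and 0.81 at 72 h (SE 0.14, adjusted p = 0.000182), with 2.45 between them (SE 0.15, adjusted p = 1.63e-08).

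DTX3L took the same course at smaller size, with 33.2 and 29 CPM at 0 h, 19.6 and 19.9 at 6 h, then 57.3 and 49.5 at 72 h. The fitted change on the log2 scale was -0.65 at 6 h (SE 0.10, adjusted p = 9.24e-05) and 0.78 at 72 h (SE 0.10, adjusted p = 1.49e-05), and 72 h against 6 h gave 1.44 (SE 0.10, adjusted p = 6.85e-08). The 2 genes overlap, and how far reads were divided between them was not tested.

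PARP14, another ADP-ribose enzyme on chromosome 3, had no dip. It went from 45.3 and 35.6 CPM at 0 h to 65.8 and 68.8 at 3 h and 115 and 103 at 72 h, where the log2 fold change was 1.43 (SE 0.10, adjusted p = 5.12e-08). TRIM21, an antibody-binding ubiquitin ligase, rose at 6 h, the time at which PARP9 was lowest. It had 6.51 and 8.30 CPM at 0 h, 19.0 and 21.6 at 6 h, then 16.4 and 15.7 at 72 h (log2 fold change at 6 h 1.46, SE 0.16, adjusted p = 2.47e-06). TRIM22, a ubiquitin ligase, had the highest TPM of this group (mean 67.8), with 71.1% of its reads on a transcript of only 508 nt. Its mean CPM was 18.6, below the 69.3 of PARP14. It had 16.8 and 13.2 CPM at 0 h against 23.8 and 21.4 at 6 h. Its call at 6 h (log2 fold change 0.59, adjusted p = 0.012) was lost without 0 h replicate 2 and with scaling to total counts, where the value was 0.22.

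Few reads of the large GTPases MX1 and MX2 lay on protein-coding transcripts. MX1 and MX2 form rings that trap viral particles. MX1 had 2.55 and 2.9 CPM at 0 h and 1.37 and 1.66 at 6 h (log2 fold change -0.84, adjusted p = 0.00847, not called without 6 h replicate 1). Only 2.63% of its reads over all libraries lay on protein-coding transcripts and 68% lay on a single transcript annotated as a retained intron. MX2 had 5.43 and 5.54 CPM at 0 h, 3.87 and 2.88 at 24 h, then 6.94 and 7.12 at 72 h. It was lower at 24 h (log2 fold change -0.71, SE 0.21, adjusted p = 0.0107), a call that was lost without 24 h replicate 2. On protein-coding transcripts alone, which held 15% of its reads, the MX2 value at 24 h was 0.61 in the other direction and was not called (adjusted p = 0.323). These coding reads rose late, from 11 and 11 at 0 h to 18 and 27 at 24 h and 109 and 96 at 72 h. The total for all MX2 transcripts does not show that rise at its full size.

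GBP2, a guanylate-binding protein that attacks the membranes around intracellular microbes, went from 2.03 CPM in both libraries at 0 h to 5.49 and 5.53 at 72 h (log2 fold change 1.44, SE 0.18, adjusted p = 8.21e-06). At 24 h the values were still 2.07 and 1.97, and 72 h exceeded 24 h by 1.45 (SE 0.17, adjusted p = 4.53e-05). Protein-coding transcripts held 55.4% of its reads, and on these alone the 72 h change was 0.91 with an adjusted p of 0.0558. GBP1 had 0 reads at 0 h and at 0.5 h and at most 5 reads at any time.

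SAMD9 and SAMD9L, neighbours on chromosome 7 that restrain poxviruses and cell growth, rose between 6 h and 24 h and again by 72 h. SAMD9 had 2.46 and 1.22 CPM at 0 h, 3.35 and 3.27 at 0.5 h, 2.41 and 3.42 at 1.5 h, 1.48 and 2.28 at 3 h, 2.99 and 3.72 at 6 h, 14.9 and 16.9 at 24 h, 18.6 and 20.3 at 48 h, then 33.2 and 29 at 72 h. The late pairs did not overlap with any earlier library. The log2 fold change was 3.11 at 24 h and 4.07 at 72 h (SE 0.28, adjusted p = 2.55e-08). SAMD9L had far fewer reads, 15 and 7 at 0 h against 82 and 55 at 72 h. SAMD9L rose by 2.53 (SE 0.34, adjusted p = 2.05e-05).

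ISG20, an RNA exonuclease, was the earliest riser. It had 1.41 and 1.51 CPM at 0 h, 1.37 and 1.72 at 0.5 h, 5.46 and 3.89 at 1.5 h, 5.24 and 5.45 at 3 h, 3.59 and 3.47 at 6 h, 7.04 and 6.50 at 24 h, 14.0 and 12.3 at 48 h, then 13.6 and 16 at 72 h. It rose within 1.5 h, was lower again at 6 h than at 3 h in both libraries, and was higher again from 24 h on. By edgeR, the log2 change was 1.68 at 1.5 h (SE 0.20, adjusted p = 9.17e-05) and 3.34 at 72 h (SE 0.20, adjusted p = 5.46e-09). Protein-coding transcripts held 49.6% of its reads, and on these alone the 1.5 h value was not called (adjusted p = 0.0689), while the later ones were.

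IFI6, a small mitochondrial and endoplasmic reticulum protein, had 1.57 and 1.38 CPM at 0 h and 1.84 and 1.1 CPM at 6 h, and then rose to 4.45 and 4.40 at 24 h and 7.94 and 8.53 at 72 h (log2 fold change at 72 h 2.48, SE 0.24, adjusted p = 7.58e-07). IFI35, a regulator of innate signalling, was called at 6 h only, where it fell from 7.55 and 9.59 CPM to 4.65 and 4.60 (log2 fold change -0.89, SE 0.18, adjusted p = 0.000765). XAF1 and IFI27, linked to cell death, were not called at any time against 0 h, and XAF1 values ran from 5.23 to 11.3 CPM. IFI44 had a read in 2 of 16 libraries, and IFI44L had 3 to 18 reads with 0.813% of them on protein-coding transcripts.

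**Figure D3:**
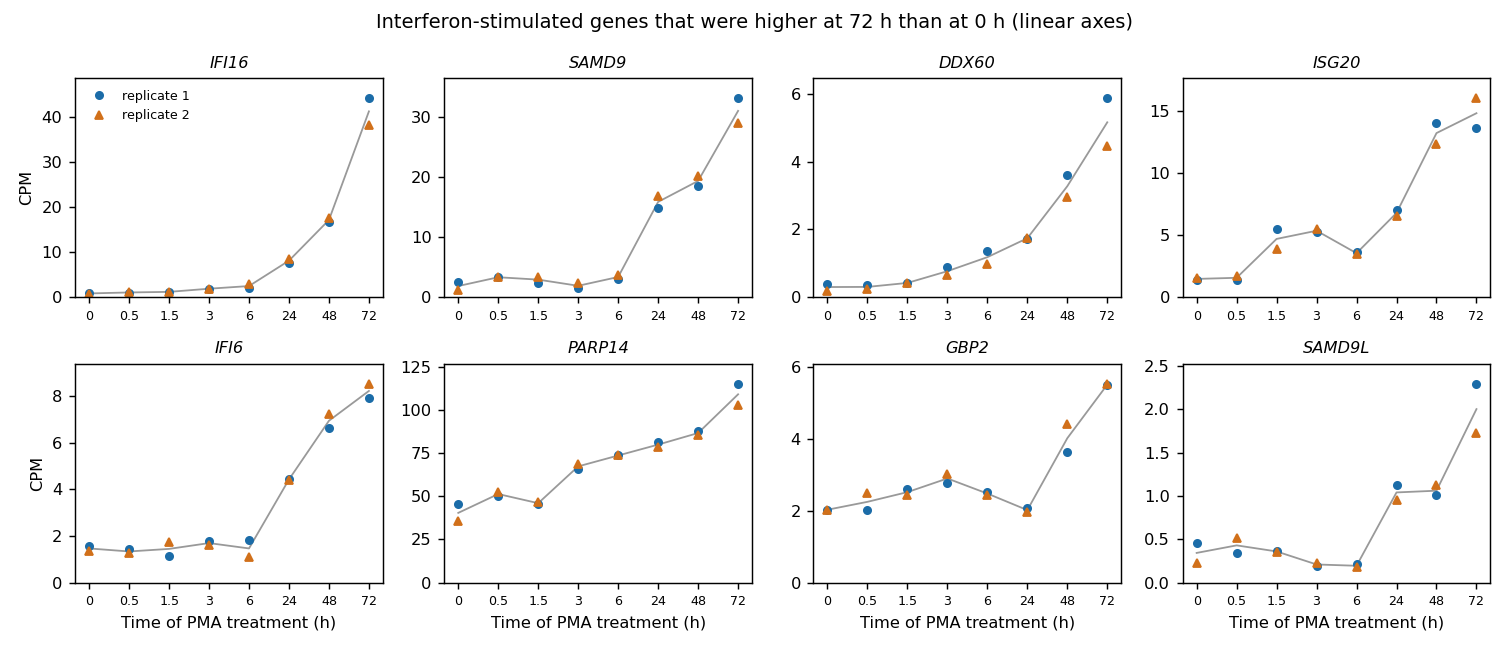
CPM in each library, by time of PMA treatment in hours (times are equally spaced, not to scale), for 8 members that were higher at 72 h than at 0 h. Points are the 2 replicates and the line joins their means; ISG20 rises within 1.5 h, whereas GBP2 is near its 0 h level at 24 h and reaches 5.49 and 5.53 CPM at 72 h.

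The levels of the members spanned orders of magnitude, and their order changed. In TPM, which corrects for length, IFITM1 stood at 1136 on average at 0 h, followed by IFITM3 at 707, IFITM2 at 616, BST2 at 113, TRIM22 at 52.5 and STAT2 at 49.6. The place of TRIM22 depends on this correction, since its mean over all libraries was 18.6 CPM, against 96.5 CPM for STAT2. At 72 h the same 3 IFITM genes led with 396, 293 and 255, and IFI16 had gone from 0.565 to 37.6. DDX60 remained low at 1.82 TPM in spite of its large fold change. Chosen after their values were seen, IFIT1 ran from 0.261 to 1.28 TPM and OAS1 from 0.653 to 1.73 over the 16 libraries, while ISG15 reached 25.7 and ISG20 27.3.

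The kind of transcript counted bears on several members. In 9 of 41 members, fewer than 50% of the reads lay on transcripts annotated as protein-coding, and in 23 at least 90% did. Of the tested protein-coding genes as a whole, 12.9% were under 50%. The 9 were IFI44, IFI44L, MX1, HERC5, MX2, IRF9, IFI27, IRF7 and ISG20. With protein-coding transcripts only, 34 members could be tested, and 24 were called at 72 h, of which 22 were among the 24 called on all transcripts. In that fit 8829 of all genes were called at 72 h, against 10294 on all transcripts.

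**Figure D4:**
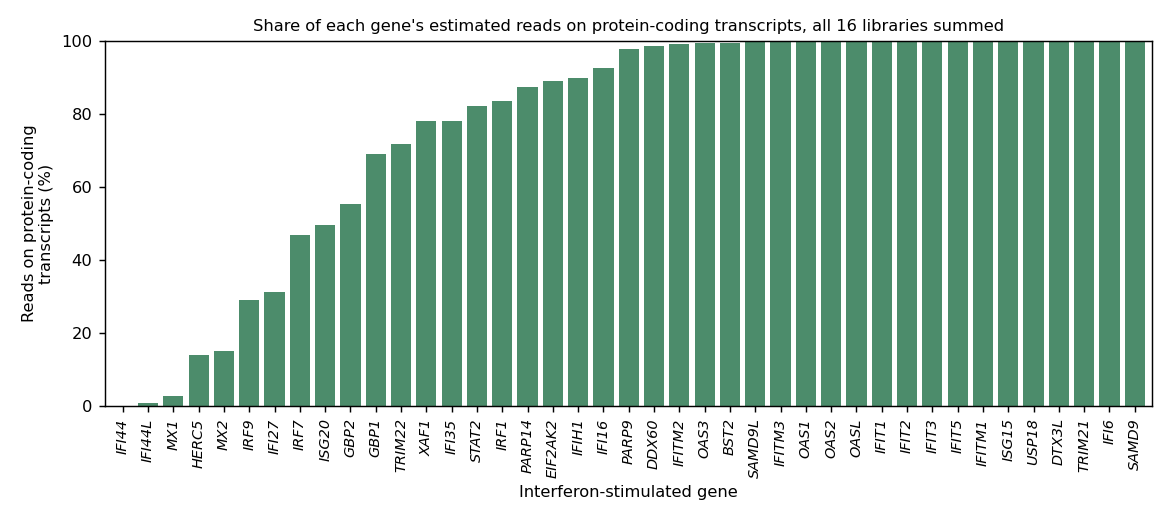
Percentage of each member's estimated reads that lay on transcripts annotated as protein-coding, summed over all 16 libraries (bars, 0 to 100%). The 9 bars at the left stay under 50%, from 0% for IFI44 to 49.6% for ISG20.

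Among members with a promoter in the table and enough reads, those with the ISRE core and those without both held higher and lower genes. At 72 h, 8 of the 18 with the core were higher and 4 lower (median log2 fold change 0.19), and 7 of the 11 without it were higher and 1 lower (median 0.71), beside 31.7% of all genes higher and 26.9% lower. At 6 h, 5 were higher and 8 lower with the core, and 3 were higher and 4 lower without it, beside 27.8% of all genes higher and 29.4% lower. These are counts of the letters in a window and were not tested.

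The wider pathway was read from lists that were set beside the members. Of 21 interferon ligand genes, 17 had 0 reads in every library, and the other 4 had at most 8 (IFNW1) or 3 reads in any library, so no ligand RNA was detectable above a few reads at this depth. CDKN2A, CDKN2B and DMRTA1, which lie near the type I interferon cluster on chromosome 9, were also at 0 reads in every library. The other 2 of the 5 genes listed from this region, MTAP and KLHL9, passed the filter on low counts, and MTAP had 569 to 1304 reads.

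The receptor chains and kinases were expressed, and 6 of 9 were higher at 72 h with 0 lower, beside 31.7% of all genes higher and 26.9% lower at that time. JAK1, the kinase shared by all interferon receptors, rose by a log2 value of 2.01 (SE 0.09, adjusted p = 4.44e-10), from 124 and 111 CPM to 499 and 445. IFNAR1 and IFNAR2, the chains of the type I receptor, rose by 0.88 (adjusted p = 6.22e-06) and 0.84 (adjusted p = 9.33e-07). Of the 7 negative regulators, 5 were higher at 72 h and 0 lower, against the same background. SOCS1, which inhibits JAK kinases, was higher from 3 h on (log2 fold change 1.87, adjusted p = 0.000213) and stood at 23.7 and 40.9 CPM at 72 h against 2.39 and 4.73 at 0 h.

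At 6 h lower levels were also measured outside the members. Of 12 sensors and adaptors upstream of interferon production, 6 were lower and 0 higher at 6 h, beside 29.4% of all genes lower and 27.8% higher. By 72 h, 5 were higher and 2 lower, beside 31.7% of all genes higher and 26.9% lower. STING1, the adaptor for cytosolic DNA sensing, had 54.1 and 70.9 CPM at 0 h and 5.98 and 6.19 at 6 h (log2 fold change -3.36, SE 0.14, adjusted p = 2.19e-10), and remained lower at 72 h (-1.24, adjusted p = 1.38e-06). Of 27 tested genes among 30 other interferon-responsive genes, 3 were higher and 13 lower at 6 h, and 12 were higher and 5 lower at 72 h. The shares of all genes at these times are those given above for the sensors and adaptors. GBP3 had 2 and 0 reads at 0 h and 160 and 136 reads at 72 h.

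Markers of other cell types were examined because several members are abundant in immune cells. The 5 T cell markers summed to 12.4 to 15.6 CPM at 0 h and 22.5 to 24.9 at 72 h, with CD2 at 2 reads or fewer. Among them TRAC went from 0 and 1 reads at 0 h to 81 and 110 at 6 h, where it was called higher, and CD3D rose by a log2 value of 1.12 at 72 h (adjusted p = 3.4e-05). The 5 B cell markers stayed between 1.27 and 3.54 CPM, with MS4A1 at 1 read or fewer. The 5 monocyte markers summed to 43.8 to 85.5 CPM, mostly LYZ, with CD14 at 18 reads or fewer. LYZ fell by 0.59 at 72 h on the log2 scale (adjusted p = 0.000127), while CSF1R went from 1 and 3 reads at 0 h to 239 and 252 at 72 h and VCAN from 11 and 8 to 246 and 220, both called higher. The 4 plasmacytoid dendritic cell markers went in sum from 0.225 to 0.583 CPM at 0 h to 338 to 358 at 72 h, all but a trace of it GZMB, while LILRA4 was at 0 reads in every library. The 5 fibroblast markers went in sum from 10.9 to 13 CPM at 0 h to 217 to 235 at 72 h, mostly COL1A1, with LUM at 0 reads in every library. Their part in the late rise of members was not tested.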

How the data were processed

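The deposited tables hold, per the file headers, estimated counts (expected reads per transcript) and TPM values for 177456 transcripts in each of 16 libraries, made by the authors with Salmon, per the submitters' processing notes. These notes also list the builds hg19 and hg38 and Trim Galore 0.4.3, with no role. The index, strand setting and any bias correction are not given in the sources used here. Estimated counts were summed per gene (GENCODE 29, GRCh38; 94.1% of transcripts matched, 3.01 to 3.75% of reads unmatched) and rounded. Totals were 27285773 to 54056289 reads per library.

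edgeR 4.0.16 in R 4.3.3 fitted all 8 time points together after filterByExpr (17559 genes) with TMM factors and the quasi-likelihood F-test. Benjamini-Hochberg adjustment ran over all tested genes within a comparison, with a threshold of 0.05. The prior count for log2 fold changes was 0.125. The SE is the unshrunken change divided by the square root of F. CPM uses TMM-scaled library sizes.

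The 41 members, the lists beside them and the tests were chosen with earlier results of these data known. Given in full were, from each of 8 role groups, the member with the highest mean TPM and that with the largest called change at a mean of at least 1 CPM, any member called against the median direction of its group or in opposite directions, and any near the read floor; others that the text describes were added after their values were seen. Alternatives covered scaling (DESeq2 1.42.0 size factors, total counts), low-count filters, length-scaled TPM counts, GC trend, replicate block, single libraries left out, DESeq2, and, chosen after seeing the data, protein-coding transcripts only. Read floors cover counting error only, while the SE and p-values also carry the spread between libraries. An item of these lists is not reported here.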

Additional observations from a re-analysis of the deposited data

Results flagged for a closer look

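The 9 members below were called both above and below 0 h at different times. Each was then compared directly between its highest and its lowest time against 0 h. Members and times were picked from the same fit, so a difference was likely in advance. The p-values do not allow for that choice, and the values are given as descriptions. STAT2 differed between 72 h and 6 h by a log2 value of 1.51 (adjusted p = 2.28e-09), EIF2AK2 by 1.41 (adjusted p = 1.58e-06), OAS3 by 1.25 (adjusted p = 2.62e-05), DTX3L by 1.44 (adjusted p = 6.85e-08) and PARP9 by 2.45 (adjusted p = 1.63e-08), all with the 72 h libraries higher. IRF9 was higher at 72 h than at 1.5 h by 1.59 (adjusted p = 1.88e-06), and IRF1 was higher at 24 h than at 1.5 h by 0.84 (adjusted p = 0.000205). IFIT1 ran the other way, with 24 h below 6 h by a value of -1.81 (adjusted p = 0.000236). IRF7 gave -5.24 for 24 h against 6 h (adjusted p = 0.000224), but it had 0 and 6 reads at 24 h and its 6 h libraries, with 36 and 121 reads, were far apart.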

How the results depend on the processing

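Of 104 calls of single members against 0 h, 61 were kept in every alternative, 43 were lost in at least 1, and 3 turned in direction in at least 1 (GBP2 at 3 h and 48 h, MX2 at 24 h). MX2 at 24 h was 0.61 with protein-coding transcripts only, against -0.71. The count of members called at 0.5 h (0) was 2 without the low-count filter. At 1.5 h (4) it was 7 without that filter, 1 with protein-coding transcripts only, 2 with the GC trend removed and 1 in a fit of only the groups compared. At 3 h (10) it was 16 with total counts and 4 in a fit of only the groups compared. Leaving out single libraries gave 0 to 7 (0.5 h), 1 to 12 (1.5 h), 6 to 11 (3 h), 17 to 25 (6 h), 17 to 22 (24 h), 17 to 19 (48 h), 21 to 24 (72 h) and 8 to 12 (72 h against 24 h). Arms left with 1 library were assumed to vary like the others. The medians of the members near 0 changed sign with the setting, at 24 h from -0.26 to 0.17, while those at 48 h (0.10 to 0.44) and 72 h (0.20 to 0.70) stayed above 0. Libraries with the same replicate number deviated together in 24 of 28 pairs of time points (correlation over 0.1, median 0.27, range -0.3 to 0.6) but not in all, and nothing in the labels says what the number marks, so it was not used as a block in the tests above. With the replicate number as a block, 0, 4, 10, 23, 24, 21 and 25 members were called at the 7 times. Over all genes that fit called 38, 3581, 7733, 10342, 10563, 9888 and 10657. Members under about 10 reads, and the 4 near the floor, are limited by depth.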
